A study of Homo sapiens with 6 samples.

Results

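The genes described here are 9 members of the NRF2 antioxidant pathway, namely NFE2L2 (which encodes NRF2), KEAP1, BACH1, NQO1, SRXN1, ME1, AKR1C1, AKR1B10 and OSGIN1. They were found by gene name among 33496 genes, and each name matched 1 row. RNA was measured by sequencing of total RNA from ARPE-19, an established human retinal pigment epithelium (RPE) line, in 2 groups of 3 libraries. The Era group received erastin, an inhibitor of the cystine importer that induces ferroptosis, at 5 μM for 24 h. The Era+VK group received the same erastin and also vitamin K1 (VK1) at 10 μM, added 1 h before it. Both groups therefore carried erastin, no untreated library was analysed here, and the labelled difference between them is VK1 on top of erastin. The authors dissolved VK1 in ethyl alcohol, and no matching vehicle is stated for Era. Every title gives ARPE-19, while the number in the cell line label counts up from sample to sample, and all 6 libraries were taken as ARPE-19. ARPE-19 is a single line, and no label says that the 3 libraries of a group came from separate experiments. The authors' legend to the figure with these data speaks of averages over 3 independent experiments, without linking them to the libraries. The p-values therefore measure the spread between these libraries, which may be technical.

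NRF2 is a transcription factor that is held at a low level by KEAP1, a cysteine-rich adaptor that hands it to a CUL3 ubiquitin ligase. Electrophiles and oxidants modify KEAP1, and NRF2 then accumulates, pairs with a small MAF protein and binds antioxidant response elements, from which BACH1, a heme-sensing repressor, is displaced. This control acts largely on protein stability, so the transcript level of NFE2L2 does not by itself report NRF2 activity, while the transcripts of its target enzymes are its usual readout. ATF4 is the effector of the amino acid and integrated stress responses, binds other elements, and shares a small number of target genes with NRF2, among them SLC7A11, the erastin-inhibited cystine importer.

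Values are FPKM, fragments scaled to transcript length and to the mapped fragments of the library, and the number of reads behind them is unknown. The libraries held between 11924 and 12027 genes at 1 FPKM or more. Of 18 RPE markers, 7 were at 1 FPKM or more in every library, among them OTX2 (27.50 to 31.35 FPKM) and MITF (15.49 to 18.59 FPKM), and 10 were under 1 FPKM in every library, among them RPE65, the visual cycle isomerase, at 0.02 FPKM at most. BEST1, an RPE chloride channel, ranged from 0.60 to 56.98 FPKM with no separation of the groups. Era+VK replicates 2 and 3 stood apart. Summed over 10 globin genes they held 234.86 and 228.34 FPKM, against 0.24 to 0.61 FPKM in the other 4 libraries, and 11 of 16 erythroid genes were higher in both than in any other library. Differences below that moved by more than 1.5 times with these libraries left out are also given without them. That fit keeps 1 Era+VK library, replicate 1, against 3 Era libraries. It holds no spread within Era+VK, so only the size of the difference is given.

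To show which elements lie near the members' start sites, promoter windows of 300 bases (250 before and 50 after the start, RefSeq, GRCh38.p14) were searched on both strands. There were 12 windows for 8 of the 9 members, with none for AKR1B10. The core of the antioxidant response element, TGACNNNGC, was present in 2 of these 12 windows, those of ME1 and of one start of KEAP1, and in 13.3% of all 35116 windows. The AP-1 letters TGACTCA, which overlap the antioxidant core in ME1, were present in windows of BACH1, ME1 and OSGIN1 and in 4.95% of all windows. The letters TGATGNAA, the core of the C/EBP-ATF response element through which ATF4 acts, were in no member's window, in that of ASNS, and in 3.62% of all windows. ME1 had a further match to the antioxidant core after its start, which is not shown. The stretches that carry the matches before a start are shown with the matched letters in capitals, read on the strand of the gene.
ME1, 137 bases before the start, minus strand, chr6:83431170-83431198: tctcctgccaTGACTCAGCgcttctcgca
KEAP1, 54 bases before the start, minus strand, chr19:10502807-10502835: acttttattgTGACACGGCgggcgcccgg
KEAP1, 31 bases before the start, minus strand, chr19:10502784-10502812: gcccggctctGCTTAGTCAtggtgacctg
OSGIN1, 97 bases before the start, plus strand, chr16:83953133-83953159: gggcccctgcTGACTCAcgcttatgaa
BACH1, 48 bases before the start, plus strand, chr21:29298864-29298890: gcggaaggagTGAGTCAcctgaccgct
ASNS, 68 bases before the start, minus strand, chr7:97872459-97872486: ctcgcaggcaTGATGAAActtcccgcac
A match is a description of these letters and not of binding, which was not measured here, and a window without a match says only that the letters are absent from it.

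The levels of the members spanned a wide range. NQO1 had the highest mean over the 6 libraries, 206 FPKM, above 99.0% of the 11981 genes tested. It was followed by SRXN1 at 41.6 FPKM, KEAP1 at 32.8 FPKM, ME1 at 14.7 FPKM, NFE2L2 at 8.93 FPKM, BACH1 at 7.32 FPKM and OSGIN1 at 1.71 FPKM. No neighbours in this order overlapped in their ranges over the 6 libraries down to OSGIN1. AKR1C1 and AKR1B10, at 0.11 and 0.03 FPKM, were the lowest and overlapped each other. The plot of the members by library shows how narrow the spread within a group was for the 7 genes above 1 FPKM.

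**Figure D1:**
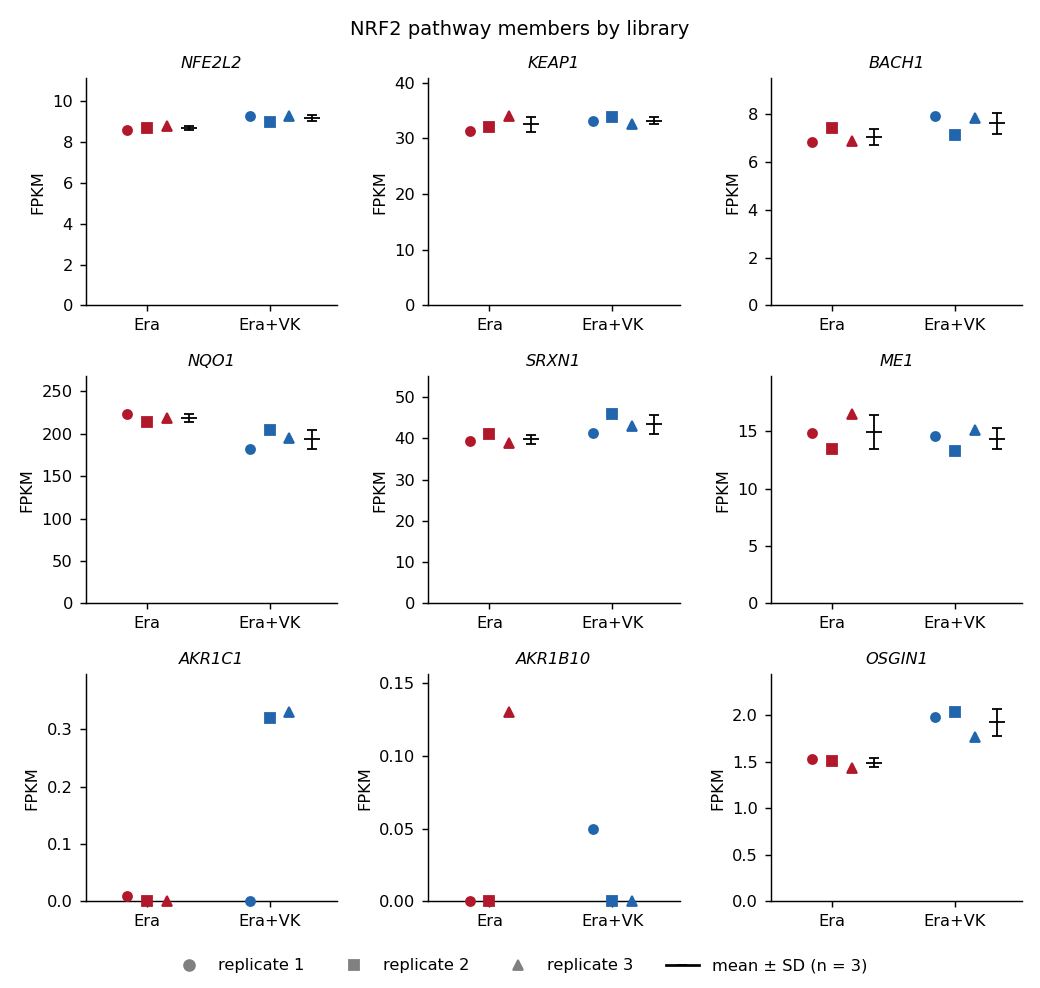
FPKM of the 9 members in each library (y axis, starting at 0, on its own scale in each panel) for Era (red) and Era+VK (blue). Symbols mark the replicates, and black bars give the mean ± SD of 3 libraries where no library is under 1 FPKM. NQO1 lies lower in all 3 Era+VK libraries and OSGIN1, SRXN1 and NFE2L2 lie higher, while AKR1C1 is above 0.01 FPKM in Era+VK replicates 2 and 3 alone.

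Among the regulators, NFE2L2 (ENSG00000116044, GRCh38 chr2:177227595-177392697) had 8.60, 8.67 and 8.79 FPKM in Era and 9.25, 8.99 and 9.25 FPKM in Era+VK. The groups did not overlap, with the 3 Era+VK libraries higher. Their means were 8.69 ± 0.0961 FPKM (SD, n = 3) and 9.16 ± 0.15 FPKM (SD, n = 3), a difference of 0.07 on the log2(FPKM + 1) scale (95% interval -0.03 to 0.17, limma, adjusted p = 0.46), which did not pass the threshold of 0.05. The median difference of all genes tested was 0.03 on the same scale. The protein-coding gene AGPS overlaps the annotated span of NFE2L2 on the other strand and was at 6.61 to 7.40 FPKM.

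KEAP1 (ENSG00000079999, chr19:10486120-10503741), the NRF2 inhibitor, had 31.41, 32.14 and 33.98 FPKM in Era and 33.16, 33.83 and 32.54 FPKM in Era+VK. The Era+VK values lay within the Era range, and the difference was 0.03 on the log2 scale (95% interval -0.08 to 0.13, limma, adjusted p = 0.797). BACH1 (ENSG00000156273, chr21:29194071-29630751), the repressor that competes for the same elements, had 6.84, 7.42 and 6.85 FPKM in Era and 7.90, 7.10 and 7.83 FPKM in Era+VK. Era+VK replicate 2 lay inside the Era range, and the difference was 0.10 (95% interval -0.03 to 0.23, limma, adjusted p = 0.448). None of these 3 regulators passed the test, and their intervals held no difference beyond 0.23 in either direction.

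Among the target enzymes, NQO1 (ENSG00000181019, chr16:69706996-69726951), a quinone reductase that can also reduce vitamin K quinones, had 223.07, 214.02 and 218.52 FPKM in Era and 181.83, 204.07 and 195.50 FPKM in Era+VK. All 3 Era+VK libraries were lower, with replicate 1 the lowest. The means were 219 ± 4.53 FPKM and 194 ± 11.2 FPKM (SD, n = 3 each), 11.3% apart, and the difference was -0.17 on the log2 scale (95% interval -0.30 to -0.05). It did not pass after adjustment over all genes (limma, adjusted p = 0.197), and with Era+VK replicates 2 and 3 left out it was -0.26.

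OSGIN1 (ENSG00000140961, chr16:83948282-83966332), an oxidative stress-induced growth inhibitor, had 1.53, 1.51 and 1.43 FPKM in Era and 1.98, 2.03 and 1.76 FPKM in Era+VK. The 3 Era+VK libraries were higher without overlap. The difference was 0.23 on the log2(FPKM + 1) scale (95% interval 0.08 to 0.38, limma, adjusted p = 0.171), which understates the change of so low a gene, and it was 0.35 with a pseudocount of 0.1 (adjusted p = 0.177). With Era+VK replicates 2 and 3 left out it was 0.26. The protein-coding gene AC009119.2 overlaps the annotated span of OSGIN1 on the same strand and has no value here.

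SRXN1 (ENSG00000271303, chr20:646615-653370), sulfiredoxin, which restores hyperoxidised peroxiredoxins, had 39.39, 41.08 and 38.89 FPKM in Era and 41.24, 45.86 and 43.05 FPKM in Era+VK. The groups did not overlap, with Era+VK replicate 1 just above Era replicate 2. The difference was 0.12 on the log2 scale (95% interval 0.003 to 0.24, limma, adjusted p = 0.307). It was 0.05 without Era+VK replicates 2 and 3, the libraries with globin transcripts. ME1 (ENSG00000065833, chr6:83210389-83431071), cytosolic malic enzyme, a source of NADPH, had 14.90, 13.48 and 16.50 FPKM in Era and 14.61, 13.33 and 15.15 FPKM in Era+VK. The groups overlapped, with a difference of -0.05 (95% interval -0.23 to 0.13, limma, adjusted p = 0.788). It became 0.02 without Era replicate 3 and -0.03 without Era+VK replicates 2 and 3.

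Of the 9 members, 7 passed the minimum of a mean of 1 FPKM over the 6 libraries, and none of the 7 was called at an adjusted p under 0.05, by limma, in either direction. Unadjusted, 3 of the 7 (NQO1, OSGIN1 and SRXN1) were under 0.05 by limma, a larger share than the 15.8% of all genes tested, though of few genes. In this comparison 0.484% of the 11981 genes were called lower in Era+VK and 0.134% higher, so a count of 0 among 7 is near the background. Among the 7, groups that did not overlap were found with Era+VK higher for 3 (NFE2L2, SRXN1 and OSGIN1), or 42.9%, against 15.1% of all genes tested. They were found with Era+VK lower for 1 (NQO1), or 14.3%, against 7.04%. ATF4, for comparison, fell by 0.55 on the log2 scale (95% interval -0.69 to -0.41, limma, adjusted p = 0.0128), from 134.26, 138.59 and 145.67 FPKM to 88.18, 98.78 and 98.33 FPKM. ASNS, asparagine synthetase and an ATF4 target, fell by 0.95 (95% interval -1.15 to -0.75, limma, adjusted p = 0.0109), from 38.26, 38.63 and 40.25 FPKM to 18.50, 23.04 and 18.09 FPKM. Both calls were lost when an Era library was left out, at adjusted p of 0.0645, 0.102 and 0.0738 for ATF4 and 0.0619, 0.0702 and 0.0673 for ASNS without Era replicates 1, 2 and 3, with differences of -0.52 or beyond for ATF4 and of -0.93 or beyond for ASNS. They were also lost with no filter on low values, at adjusted p (limma) of 0.0877 for ATF4 and 0.074 for ASNS. The processed transcript AC079781.5 overlaps ASNS on the same strand and was at 2.23 to 7.70 FPKM.

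**Figure D2:**
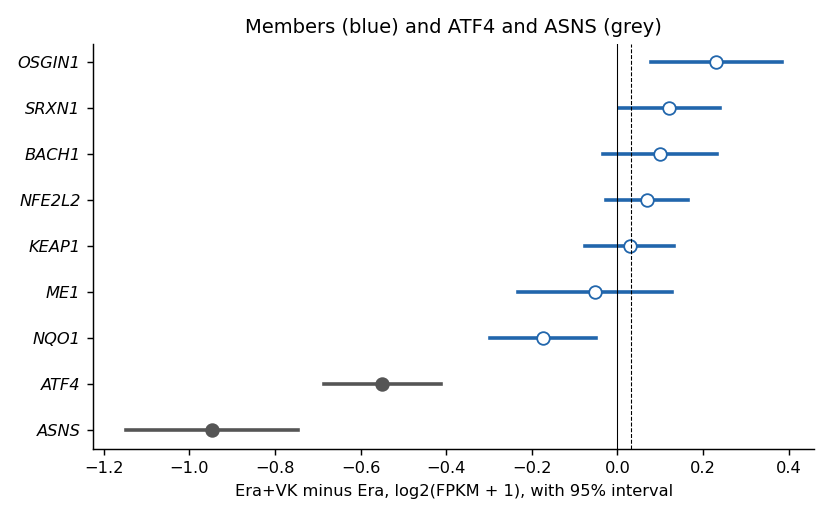
Difference between Era+VK and Era on the log2(FPKM + 1) scale (x axis) with its 95% interval for the 7 members tested (blue) and for ATF4 and ASNS (grey), where filled points have an adjusted p under 0.05. The solid line is 0 and the dashed line the median of all genes tested (0.03), and the members lie between -0.17 and 0.23 while ATF4 and ASNS lie at -0.55 and -0.95.

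The members were next compared with ATF4 inside each library, as the log2(FPKM + 1) of the member minus that of ATF4. For NQO1 this quantity was 0.64 on average in Era and 1.02 in Era+VK, a difference of 0.38. For NFE2L2 the difference was 0.62, for KEAP1 0.58, for BACH1 0.65, for SRXN1 0.67, for ME1 0.50 and for OSGIN1 0.78. In each of these 7 the 3 Era+VK libraries were above the 3 Era libraries. The same held for AKR1C1 and AKR1B10, with differences of 0.82 and 0.51, but both were under 0.5 FPKM in every library, where the pseudocount of 1 sets most of their own term. With a pseudocount of 0.1 the AKR1C1 difference was 1.90. That of AKR1B10 was then 0.35 (exact permutation test, two-sided, adjusted p = 0.5), so its result rests on the pseudocount. With the pseudocount of 1, two-sided exact permutation tests gave p = 0.1 for all 9 comparisons, also after Benjamini-Hochberg adjustment. This is the smallest p that 3 libraries against 3 can give, so this design cannot reach 0.05. ATF4 entered every one of the 9 and itself fell by 0.55 without overlap of the groups. Any gene that fell clearly less than ATF4 gives a positive difference here, so the shared direction is no separate result about the members. For NQO1, ME1 and AKR1B10 the difference was below 0.55, as their own means fell.

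AKR1C1 (ENSG00000187134, chr10:4963253-4983283), a ketosteroid reductase that is among the most NRF2-responsive human genes, had 0.01, 0 and 0 FPKM in Era and 0, 0.32 and 0.33 FPKM in Era+VK. It was listed at 0 in Era+VK replicate 1, so the groups overlapped, and the 2 libraries with AKR1C1 were those with globin transcripts (exact permutation test, two-sided, p = 0.4). AKR1C2, its nearest paralog, followed the same libraries, with 0, 0 and 0.03 FPKM in Era and 0, 0.13 and 0.17 FPKM in Era+VK. The coding sequences of the pair (GENCODE 29), 969 bases each, were 98.0% identical. Of 6556 windows of 150 bases from annotated AKR1C1 transcript sequence, 743 (11.3%) were also in AKR1C2, so reads could be split between them. That share does not describe the coding part alone. AKR1C3, 91.4% identical to AKR1C1 and with no shared window, was at 5.44, 4.03 and 4.87 FPKM in Era and 5.34, 5.22 and 5.38 FPKM in Era+VK, a difference of 0.13 (limma, adjusted p = 0.49).

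Of 16 erythroid genes, 11 were higher in Era+VK replicates 2 and 3 than in the other 4 libraries, as AKR1C1 was, and 5 were not, against 1370 of the 11981 genes tested. GATA1, the erythroid master regulator, was listed at 0 in 4 libraries and at 2.35 and 2.27 FPKM in Era+VK replicates 2 and 3. NFE2, a relative of NRF2 that forms the erythroid factor NF-E2 with small MAF proteins, was at 0.07, 0 and 0.02 FPKM in Era and 0.11, 1.63 and 1.60 FPKM in Era+VK. The part of the erythroid transcripts in the AKR1C1 and AKR1C2 values was not tested. AKR1B10 (ENSG00000198074, chr7:134527592-134541408), an aldo-keto reductase that reduces retinal, had 0, 0 and 0.13 FPKM in Era and 0.05, 0 and 0 FPKM in Era+VK (exact permutation test, two-sided, p = 1). It was high in no library, and its paralog AKR1B1, aldose reductase, at 75.8% identity, was at 54.82, 43.13 and 61.86 FPKM in Era and 47.42, 41.76 and 53.35 FPKM in Era+VK, with overlapping groups (difference -0.15, limma, adjusted p = 0.617). The plot of AKR1C genes beside erythroid genes shows the shared pattern of replicates 2 and 3.

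**Figure D3:**
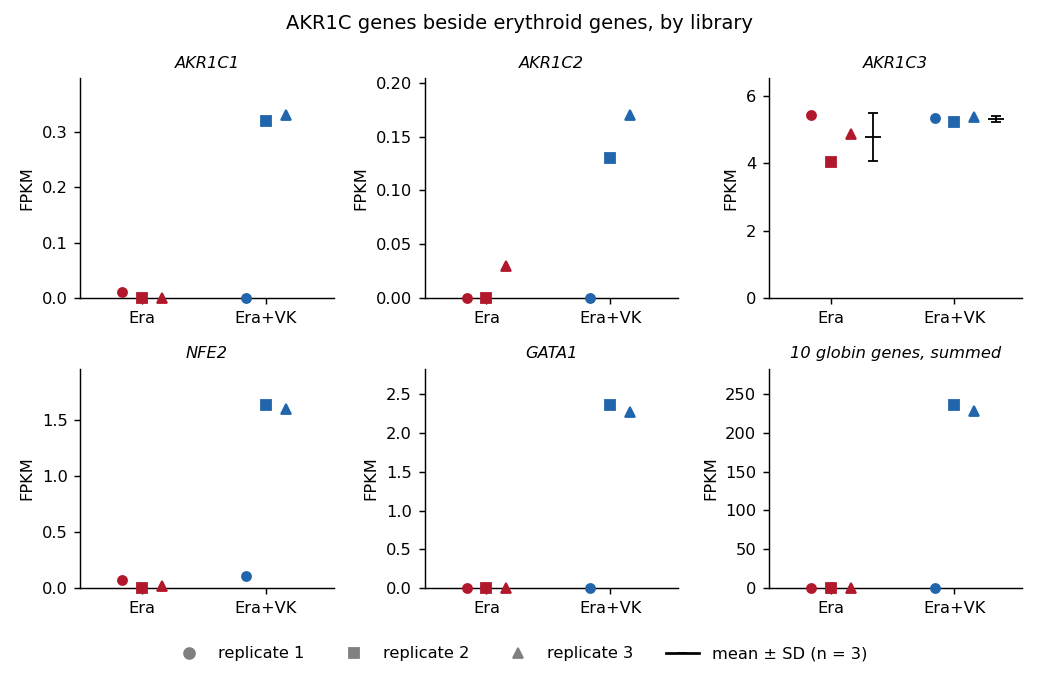
FPKM (y axis, starting at 0) of AKR1C1, AKR1C2, AKR1C3, NFE2 and GATA1 and the sum over 10 globin genes in each Era (red) and Era+VK (blue) library, with symbols for the replicates and, for AKR1C3, the mean ± SD of 3 libraries in black. AKR1C1, AKR1C2, NFE2, GATA1 and the globins are high in Era+VK replicates 2 and 3 alone, and AKR1C3 is not.

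The wider NRF2 target list held 59 genes besides the members, of which 50 passed the minimum. Of these 50, 1 (2%) was called lower and 0 higher by limma, against 0.484% and 0.134% of all genes tested. An unadjusted p under 0.05 was found by limma for 13 of the 50, a larger share than the 15.8% of all genes tested. The median difference was 0.03 on the log2 scale, as it was for all genes tested. The gene called was SLC7A11, which is also on the ATF4 list. It had 7.22, 9.29 and 7.84 FPKM in Era and 4.50, 4.41 and 5.33 FPKM in Era+VK, and fell by 0.66 (SE 0.10, limma, adjusted p = 0.0337). This call was kept when Era+VK replicate 3 was left out (limma, adjusted p = 0.0472). It was lost without any one of the other 5 libraries, and with no filter (adjusted p = 0.161). The adjusted p was 0.0804, 0.112 and 0.134 without Era replicates 1, 2 and 3, and 0.091 and 0.0644 without Era+VK replicates 1 and 2. The difference remained between -0.73 and -0.57 in these fits and without Era+VK replicates 2 and 3 together. SESN2, sestrin 2, the other gene on both lists, had 11.38, 11.83 and 11.51 FPKM in Era and 9.08, 10.21 and 10.94 FPKM in Era+VK. It was not called (difference -0.19, limma, adjusted p = 0.238), and its difference was -0.32 without Era+VK replicates 2 and 3. With these 2 shared genes left out, none of the remaining 53 NRF2 targets, members included, was called by limma in either direction. Of these 53, 14 were at an unadjusted p under 0.05, a larger share than the 15.8% of all genes tested.

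Among the 50, the groups did not overlap for 11 with Era+VK higher (22%), above the 15.1% of all genes tested. They did not overlap for 4 with Era+VK lower (8%), near the 7.04% of all genes tested. The largest differences of this kind were in SLC6A6, the taurine transporter, at 8.12, 8.06 and 8.51 FPKM in Era and 10.46, 9.33 and 11.16 FPKM in Era+VK (0.29, limma, adjusted p = 0.111), and in TRIM16L, a near copy of TRIM16 whose reads may be split with it (0.27, adjusted p = 0.0754). Below SLC7A11 in size on the lower side was ABCC3, a conjugate exporter, at 2.70, 3.08 and 2.49 FPKM in Era and 1.79, 1.94 and 2.20 FPKM in Era+VK (-0.34, limma, adjusted p = 0.129). Some well-known targets, chosen after their values were seen, likewise did not pass. HMOX1, heme oxygenase 1, had 59.91, 50.44 and 59.68 FPKM in Era and 49.52, 48.19 and 53.09 FPKM in Era+VK, with overlapping groups (-0.17, limma, adjusted p = 0.33). GCLC, the catalytic subunit of glutamate-cysteine ligase, had 5.04, 4.59 and 5.41 FPKM in Era and 5.55, 5.82 and 6.07 FPKM in Era+VK, all higher (0.18, adjusted p = 0.238). TXNRD1, thioredoxin reductase 1, differed by -0.02 (limma, adjusted p = 0.924), and by -0.05 without Era+VK replicates 2 and 3.

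Of the regulators other than NFE2L2, KEAP1 and BACH1, 23 of 27 passed the minimum. None was called by limma in either direction, against 0.484% lower and 0.134% higher of all genes tested. Of the 23, 4 were at an unadjusted p under 0.05, against 15.8% of all genes tested, and the median difference was 0.00. The largest differences without overlap were in MAFG, a small MAF partner of NRF2 (0.17, adjusted p = 0.152), and BTRC, a ligase adaptor that also recognises NRF2 (0.16, adjusted p = 0.164), on the higher side. On the lower side they were in MAFF, another small MAF (-0.23, limma, adjusted p = 0.16), and FBXO22, which targets BACH1 for degradation (-0.12, adjusted p = 0.342). NFE2L1, a relative of NRF2, followed (-0.07, adjusted p = 0.448). FBXO22 differed by -0.18 without Era+VK replicates 2 and 3. CUL3, the ligase scaffold that KEAP1 uses, differed by 0.05 (limma, adjusted p = 0.577).

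In the list of ATF4 targets, chosen like the other lists with earlier results of these data known, 34 of 36 genes passed the minimum. Of the 34, 16 (47.1%) were called lower and 0 higher by limma, against 0.484% and 0.134% of all genes tested. The median difference was -0.41, against 0.03 for all genes tested. The count called lower fell to 1 when any one of Era replicates 1, 2 and 3 was left out, while the median without Era replicate 3 was -0.42. Without Era+VK replicates 2 and 3, which left 1 Era+VK library, the median was -0.55. That of the 55 NRF2 targets tested, members included, was then 0.02. The plot by gene list shows both distributions, and no test was made of one list against the other.

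**Figure D4:**
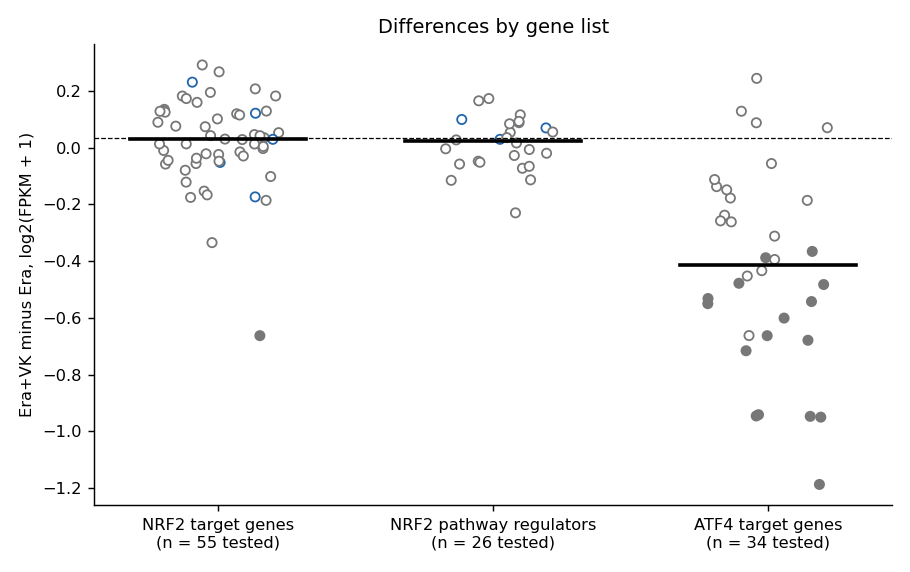
Difference between Era+VK and Era on the log2(FPKM + 1) scale (y axis) for each tested gene of 3 lists, with members in blue, other genes in grey and filled points for an adjusted p under 0.05. Horizontal bars are the list medians, 0.03 for 55 NRF2 targets, 0.02 for 26 regulators and -0.41 for 34 ATF4 targets, the dashed line is the median of all genes tested (0.03), and points are spread sideways only for legibility.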

How the data were processed

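Total RNA of 6 ARPE-19 libraries was sequenced with 150-base paired reads. Per the labels, the authors used cutadapt, HISAT2 and StringTie 2.1.6 to make 1 deposited table of FPKM per library, normalised for transcript length and mapped fragments. The labels name a mouse genome build while the identifiers are human Ensembl genes, so the build used was not settled, and coordinates printed here are those of GENCODE 29 (GRCh38), to which 9 of 9 members were matched by identifier. Strand handling is not given in the sources used here. Low values of single-exon genes did not fall into whole-read steps, so depth is unknown and no counting interval is given.

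From these values, log2(FPKM + 1) was tested with limma 3.58.1 (R 4.3.3, trend, Benjamini-Hochberg adjustment over the 11981 genes whose 6 libraries averaged 1 FPKM or more), and the within-library difference from ATF4 with exact permutation tests (scipy 1.17.1). An adjusted p under 0.05 was a call. Fold differences are on the log2(FPKM + 1) scale. The limma step was tested on simulated data. Named genes were the 9 members, their AKR paralogs, ATF4, ASNS, the genes on both target lists, every called gene of the NRF2 lists and their 3 largest differences without overlap on each side, of which 1 is not reported here. CUL3, HMOX1, GCLC, TXNRD1, NFE2, GATA1 and the RPE markers named were added after values were seen. For AKR1C4 and AKR1B15 only sequences were compared (88.5% identity to AKR1C1 and 85.3% to AKR1B10, with no shared window), and their expression is not reported here. The members and lists were chosen with earlier results of these data known. The alternatives were another pseudocount, 2 other filters, 2 other scalings, a replicate block and left-out libraries.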

Additional observations from a re-analysis of the deposited data

How the results depend on the processing

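The members called numbered 0 under all 13 alternatives to the reported fit, and the 7 tested members kept their direction in each, except ME1, which with single libraries left out ranged from -0.12 to 0.016 and was above 0 without Era replicate 3 alone. The lowest adjusted p of a member was 0.0862, for NQO1 without Era+VK replicate 2. The genes called over the whole table were 58 lower and 16 higher, and depended on the processing, the cause of which was not tested. With no filter they were 1 lower and 0 higher (2756 at an unadjusted p under 0.05), with 0 NRF2 targets and 1 ATF4 target lower. With 1 FPKM required in every library they were 89 lower and 33 higher, and with quantile normalization 97 lower. With a replicate block they were 37 lower and 5 higher, with 0 NRF2 targets lower; libraries of the same number correlated in their deviations at 0.07, 0.10 and 0.02, and not every library correlated best with its own number, so the numbers were not taken as pairs. With single libraries left out, the calls ranged from 2 to 47 lower and from 0 to 31 higher, those among NRF2 targets from 0 to 1 lower and those among ATF4 targets from 1 to 15 lower. Without Era+VK replicates 2 and 3 together, which left 1 Era+VK library, the ATF4 target median was -0.55. The member differences from ATF4 kept their direction under all 9 of their alternatives, each of which holds the fall of ATF4, and their p-values cannot fall below 0.1. The AKR1B10 difference fell to 0.35 with a pseudocount of 0.1. With the depth unknown, no counting error could be given for the low values of AKR1C1 and AKR1B10.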
